A study of Danio rerio with 15 samples.

Results

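The comparison described here set livers of adult zebrafish irradiated with 0.1 Gy against livers of adult zebrafish irradiated with 1.0 Gy, both taken 4 hours after exposure. Its members were the 3 arrays titled as adults irradiated at the low dose and the 3 titled as adults irradiated at the high dose, 6 of the 15 arrays of the series, and every probe set for a zebrafish transcript was used. One GeneChip Zebrafish Genome Array was hybridized for each pool of 2 male livers. All fish had the AB genetic background and were 16 weeks old. The adult 0.1 Gy and adult 1.0 Gy males received one whole-body exposure to caesium gamma-rays, and they were drawn at random from the cohort that also supplied the non-irradiated control males, shown beside them here (3 arrays). A sham exposure of the controls is not described in the sources used here, so handling and irradiation cannot be told apart in any comparison with controls, whereas both adult groups were handled for exposure. The other 6 arrays came from fish that received 0.1 or 1.0 Gy at 24 hours post fertilization and were killed at 16 weeks. They served here as the most similar dose comparison. Pools were made from different males, so the spread between arrays of a group is that between pools of one cohort.

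Gamma-rays break DNA and produce reactive oxygen species, and in vertebrate cells DNA breaks activate the kinases ATM and ATR, which stabilize the transcription factor p53. Activated p53 induces genes that halt the cell cycle (cdkn1a, btg2), repair DNA (ddb2), trigger apoptosis (bbc3, pmaip1, baxa) and restrain p53 itself (mdm2). The liver also answers stress and cytokines within hours through immediate early transcription factors of the Fos, Jun and Egr families and through the JAK-STAT pathway, whose targets include the kinase pim1 and the suppressors of cytokine signaling (socs genes). Hepatocytes secrete insulin-like growth factors and adjust thyroid hormone locally with deiodinases.

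Values are log2 expression as deposited, and every difference is on the log2 scale as adult 0.1 Gy minus adult 1.0 Gy, so that a positive difference means a higher level at 0.1 Gy. Of 15502 zebrafish probe sets, the 8634 whose interquartile range over the 15 arrays was at least 0.2 were tested with limma. A call required an adjusted p under 0.05 both for the comparison and for the overall F-test of the 5 groups. Defining hepatocyte transcripts were high in every array. The log2 of the summed unlogged levels of 8 hepatocyte markers lay between 17.34 and 17.39 at 0.1 Gy. It lay between 17.31 and 17.41 at 1.0 Gy and between 17.31 and 17.36 in controls.

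Some arrays carried conflicting labels or stood apart. The source names of adult 0.1 Gy replicates 1 and 2 do not mention irradiation, and those of control replicates 2 and 3 do name irradiation in adulthood, while titles, dose and timing entries give the groups used here. By root mean square log2 difference over the tested probe sets, adult 0.1 Gy replicate 1 lay 0.344 to 0.536 from the other adult arrays and 0.705 to 0.741 from the controls, and replicate 2 lay 0.323 to 0.513 from the other adult arrays and 0.702 to 0.715 from the controls. Both therefore lay nearer to every other adult array than to any control. Control replicates 2 and 3 lay at least 0.702 from every adult array and at most 0.509 from the other controls. Distances between the 2 adult doses (0.323 to 0.536) overlapped those within 0.1 Gy (0.333 to 0.377) and within 1.0 Gy (0.332 to 0.49). Adult 0.1 Gy replicate 2 lay nearest to adult 1.0 Gy replicate 1, at 0.323.

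Adult 1.0 Gy replicate 3 lay apart from the other 5 adult arrays. When the 6 adult arrays were placed by classical scaling of their distances, the first axis held 40.0% of the variance, and on it this array lay at 33.9 and the others between -12.4 and 2.9. Pancreatic islet hormones were high in it: ins, which encodes insulin, read 12.10 against 6.60 to 7.52 in the other adult arrays, and the somatostatin gene sst2 read 11.17 against 5.19 to 6.45. The epidermal keratin krt5 (10.55 against 4.55 to 7.37), the muscle creatine kinase ckma (9.46 against 5.33 to 6.43) and the muscle parvalbumin pvalb2 (9.82 against 5.24 to 6.21) were high as well. The log2 of the summed unlogged levels of 8 skeletal muscle markers was 8.14 to 8.42 at 0.1 Gy. It was 8.27 to 11.91 at 1.0 Gy and 7.92 to 8.38 in controls. For 9 exocrine pancreas markers the same measure was 13.49 to 14.83 at 0.1 Gy, 13.28 to 16.46 at 1.0 Gy and 14.49 to 15.89 in controls. In control replicate 1 ins (12.25) and sst2 (11.41) were also high. The manufacturer's actin probe sets, which read the 3′ and 5′ ends of a muscle actin, differed by 3.4 in adult 1.0 Gy replicate 3 and by -0.34 to 0.61 in the other adult arrays. The same difference for gapdh was 0.0, 0.16 and 0.13 at 0.1 Gy, against 0.04, 0.42 and 0.36 at 1.0 Gy, and its part in the results was not tested. In the same array the immediate early genes egr1 (4.61 against 6.41 to 9.18) and junba (7.22 against 8.52 to 11.19) and the sterol regulator insig1 (4.87 against 6.39 to 8.85) were low. In bulk tissue, fewer cells of a type and less RNA per cell cannot be told apart, and the part of these values in the dose difference was not tested beyond the fits without this array given below.

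**Figure D1:**
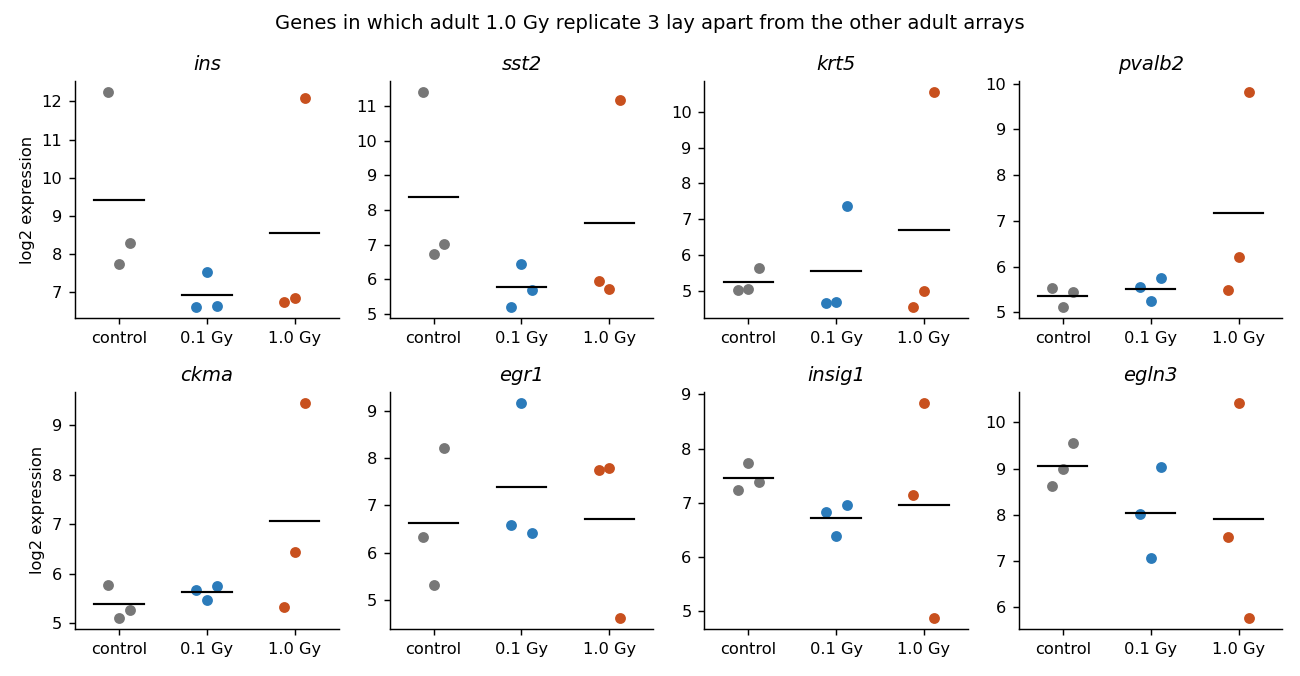
Log2 expression (y axis) of 8 genes in control, adult 0.1 Gy and adult 1.0 Gy livers (x axis), with 1 point for each array in the order of replicates 1, 2 and 3 and a line at the group mean. Adult 1.0 Gy replicate 3 is the highest adult array for ins (12.10), sst2 (11.17), krt5 (10.55), pvalb2 (9.82) and ckma (9.46) and the lowest for egr1 (4.61), insig1 (4.87) and egln3 (5.77).

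Between the 2 adult doses 7 of the 8634 probe sets (0.0811%) were called, all higher at 0.1 Gy and none lower. They read pim1, pcgf5b, dio2, pbldp, igf1, kyat3.2 and hsd17b10, with differences between 0.88 and 1.98. Set beside the controls they showed 3 arrangements. The levels of pim1 and pcgf5b were above control at both doses and further above at 0.1 Gy, those of dio2 and pbldp were below control at both doses and further below at 1.0 Gy, and those of igf1, kyat3.2 and hsd17b10 were called below control at 1.0 Gy only.

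**Figure D2:**
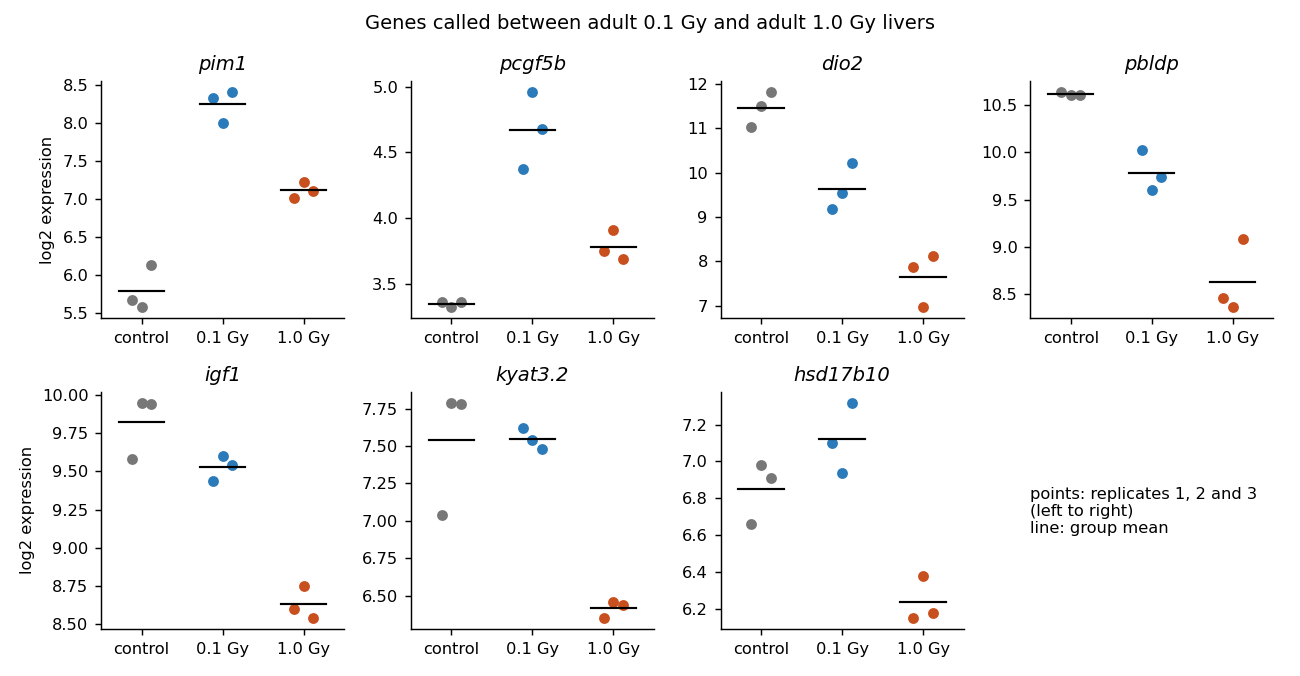
Log2 expression (y axis, a separate scale for each gene) of the 7 genes called between the adult doses, in control, adult 0.1 Gy and adult 1.0 Gy livers (x axis). Points are arrays, replicates 1 to 3 from left to right, and lines are group means. In all 7 genes the 3 arrays at 0.1 Gy lie above the 3 arrays at 1.0 Gy.

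The kinase pim1, a target of JAK-STAT signaling that promotes cell survival, read 8.33, 8.0 and 8.41 in adult 0.1 Gy livers (replicates 1 to 3), against 7.01, 7.22 and 7.11 in adult 1.0 Gy livers. The controls read 5.67, 5.57 and 6.13, so the 3 groups did not overlap. The level at 0.1 Gy was 2.19-fold that at 1.0 Gy (log2 difference 1.13 ± 0.17 SE, 95% interval 0.77 to 1.49, adjusted p = 0.027 in limma, n = 3 arrays a group). Against control pim1 was called at each dose, with log2 differences of 2.46 ± 0.17 at 0.1 Gy and 1.33 ± 0.17 at 1.0 Gy.

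The Polycomb gene pcgf5b, a component of a chromatin complex that modifies histone H2A, read 4.37, 4.96 and 4.68 at 0.1 Gy, against 3.75, 3.91 and 3.69 at 1.0 Gy. Its controls were close together at 3.36, 3.32 and 3.36. The dose difference was 0.89 ± 0.15 (adjusted p = 0.044, limma). A second probe set of pcgf5b, with higher values, read 8.01, 7.91 and 7.78 at 0.1 Gy against 7.19, 7.30 and 6.67 at 1.0 Gy, a difference of 0.85 ± 0.20 that was not called (adjusted p = 0.11, limma).

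The deiodinase dio2, which converts thyroxine to the active hormone triiodothyronine, had the largest difference of the called genes. It read 9.17, 9.53 and 10.21 at 0.1 Gy, against 7.88, 6.96 and 8.12 at 1.0 Gy, a 3.95-fold higher level at 0.1 Gy (1.98 ± 0.32, 95% interval 1.29 to 2.67, adjusted p = 0.043, limma). Control livers read 11.02, 11.50 and 11.82, above every irradiated adult array. Both doses were called below control, by -1.81 ± 0.32 at 0.1 Gy and -3.79 ± 0.32 at 1.0 Gy.

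For pbldp, annotated as a gene with a phenazine biosynthesis-like domain, the values were 10.02, 9.60 and 9.74 at 0.1 Gy, against 8.46, 8.36 and 9.08 at 1.0 Gy (1.15 ± 0.19, adjusted p = 0.044, limma). The controls, at 10.64, 10.61 and 10.61, differed by less than any irradiated group did within itself. Adult 1.0 Gy replicate 3 was the highest of its group, and without it the difference was 1.38.

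The growth factor igf1, which the liver secretes in response to growth hormone, read 9.44, 9.60 and 9.54 at 0.1 Gy, against 8.60, 8.75 and 8.54 at 1.0 Gy (0.90 ± 0.14, adjusted p = 0.028, limma). Controls read 9.58, 9.95 and 9.94. Against control igf1 was called at 1.0 Gy (-1.20 ± 0.14) and not at 0.1 Gy (-0.30 ± 0.14, 95% interval -0.59 to 0.00, adjusted p = 0.097, limma). It was thus 2.29-fold below control at 1.0 Gy and 1.23-fold below it at 0.1 Gy.

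The aminotransferase kyat3.2, of the family that converts kynurenine to kynurenic acid, read 7.62, 7.54 and 7.48 at 0.1 Gy, against 6.35, 6.46 and 6.44 at 1.0 Gy (1.13 ± 0.17, adjusted p = 0.027, limma). Its controls spread from 7.04 in replicate 1 to 7.79 in replicate 2, which covers all 3 arrays at 0.1 Gy. The mitochondrial dehydrogenase hsd17b10, which acts in isoleucine breakdown and is a subunit of mitochondrial RNase P, read 7.10, 6.94 and 7.32 at 0.1 Gy, against 6.15, 6.38 and 6.18 at 1.0 Gy (0.88 ± 0.12, adjusted p = 0.027, limma). Its controls, at 6.66, 6.98 and 6.91, overlapped the 0.1 Gy arrays and lay above the 1.0 Gy arrays.

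These calls depended on single arrays. In the 15 fits that each left out 1 array, hsd17b10 kept its call in 9, pim1, igf1 and kyat3.2 in 8, dio2 in 6, and pbldp and pcgf5b in 4, while every difference stayed positive. Without adult 1.0 Gy replicate 3 the differences of the 7 genes were 0.84 to 2.22. Without adult 0.1 Gy replicates 1 and 2, the arrays of other source name, the single remaining adult 0.1 Gy array was assumed to vary like the other groups. There hsd17b10 (1.08), dio2 (2.56) and pim1 (1.30) kept their calls, igf1 (0.91), kyat3.2 (1.06), pbldp (1.11) and pcgf5b (0.90) did not, and 26 probe sets were called in all.

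Below the adjusted threshold the differences were wider. At an unadjusted p under 0.05, 1077 probe sets differed (12.5%), 598 higher at 0.1 Gy (6.93%) and 479 lower (5.55%), and with each array centred on its median these were 720 higher and 314 lower. In 1622 probe sets (18.8%) the arrays of the 2 doses did not overlap, 822 with 0.1 Gy higher (9.52%) and 800 with 0.1 Gy lower (9.27%). The median difference of all tested probe sets was -0.02, and the median half-width of their 95% intervals was 0.31. For 7952 probe sets (92.1%) the whole interval lay within a 2-fold difference in either direction, and for 6032 (69.9%) within 1.5-fold.

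Among annotated genes with an unadjusted p under 0.01 and arrays that did not overlap between doses, the largest differences toward 0.1 Gy came with wide spreads. The lack of overlap was a condition for naming these genes and not a result. None of the genes in this paragraph other than dio2 was called. The vitamin D 25-hydroxylase cyp2r1 read 7.84, 8.95 and 10.45 at 0.1 Gy, against 6.78, 4.93 and 7.71 at 1.0 Gy (2.61 ± 0.73, adjusted p = 0.17, limma). The endothelial lipase lipg read 7.64, 6.72 and 9.46 against 5.38, 5.89 and 5.41 (2.38 ± 0.79, adjusted p = 0.26, limma). In both genes replicate 3 at 0.1 Gy was the highest adult array. The creatine kinase ckba read 6.95, 6.09 and 6.55 at 0.1 Gy, against 4.21, 5.07 and 3.93 at 1.0 Gy (2.13 ± 0.63), with controls of 6.97 to 8.19 above both, while a second probe set of ckba differed by -0.39. The growth factor igf2b read 8.73, 9.04 and 10.11 at 0.1 Gy, against 8.43, 7.78 and 7.89 at 1.0 Gy (1.26 ± 0.32, adjusted p = 0.14, limma). As with dio2, all irradiated arrays of igf2b lay below the controls (10.24 to 10.86). The monocarboxylate transporter slc16a9a (1.67 ± 0.42), the guanine deaminase gda (1.29 ± 0.31) and the translation factor bzw1b (1.43 ± 0.47) were further genes of this kind. For slc16a9a, adult 1.0 Gy replicate 3 lay far below the other adult arrays, at 7.47 against 9.1 to 10.88.

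In annotated genes with non-overlapping arrays and an unadjusted p under 0.01, the largest differences toward 1.0 Gy were smaller, and none was called. The carboxylesterase ces2a read 5.36, 5.44 and 4.82 at 0.1 Gy, against 7.96, 5.86 and 7.12 at 1.0 Gy (-1.77 ± 0.41, adjusted p = 0.11, limma), and the 0.1 Gy arrays lay within the range of the controls (4.93 to 5.74) apart from replicate 3. A second probe set of ces2a, far brighter, read 12.35, 12.42 and 12.32 at 0.1 Gy against 12.88, 13.01 and 12.88 at 1.0 Gy (-0.56 ± 0.16). The sestrin sesn3, a p53 and FoxO target that restrains mTORC1, read 5.81, 5.94 and 6.17 at 0.1 Gy, against 6.79, 7.29 and 6.81 at 1.0 Gy (-0.99 ± 0.22, adjusted p = 0.10, limma). It was called below control at 0.1 Gy (-1.25 ± 0.22) and not at 1.0 Gy (-0.26 ± 0.22). The hypoxia-inducible factor epas1b read 8.37, 8.38 and 8.30 at 0.1 Gy, against 8.85, 9.23 and 9.39 at 1.0 Gy (-0.80 ± 0.19, adjusted p = 0.11, limma). Of the 15 genes named by rule on this side, the lowest adjusted p (0.082, limma) was found in itm2cb (-0.82 ± 0.16) and in the microtubule gene slain2 (-0.80 ± 0.16), which read 5.81, 6.40 and 6.29 at 0.1 Gy against 7.01, 6.94 and 6.96 at 1.0 Gy. The kinase gene mknk1 (-0.75 ± 0.19), the peroxisomal protease lonp2 (-0.83 ± 0.20) and the growth factor hbegfa (-0.88 ± 0.23) were further genes of this kind. Without adult 1.0 Gy replicate 3 the differences of cldn11a (-1.16) and nccrp1 (-0.74) were -0.92 and -0.50.

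Against control 2967 probe sets (34.4%) were called at 0.1 Gy and 3182 (36.9%) at 1.0 Gy, which share the control arrays, and for the mean of both groups 3417 (39.6%) were called, 1257 higher (14.6%) and 2160 lower (25%). In those 3417 the median size of the difference from control was 0.63 and the median size of the dose difference was 0.16. The 95% interval of the dose difference lay within 2-fold for 3161 of them (92.5%, beside 92.1% of all tested probe sets). An unadjusted p under 0.05 between doses was found in 598 of them (17.5%, beside 12.5%). Called between doses were 6 of the 3417, beside 7 of all 8634 tested probe sets (0.0811%). For the 103 whose difference from control was at least 2 in size, the interval lay within 2-fold for 47 (45.6%), and for the other 56 it reached past 2-fold.

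**Figure D3:**
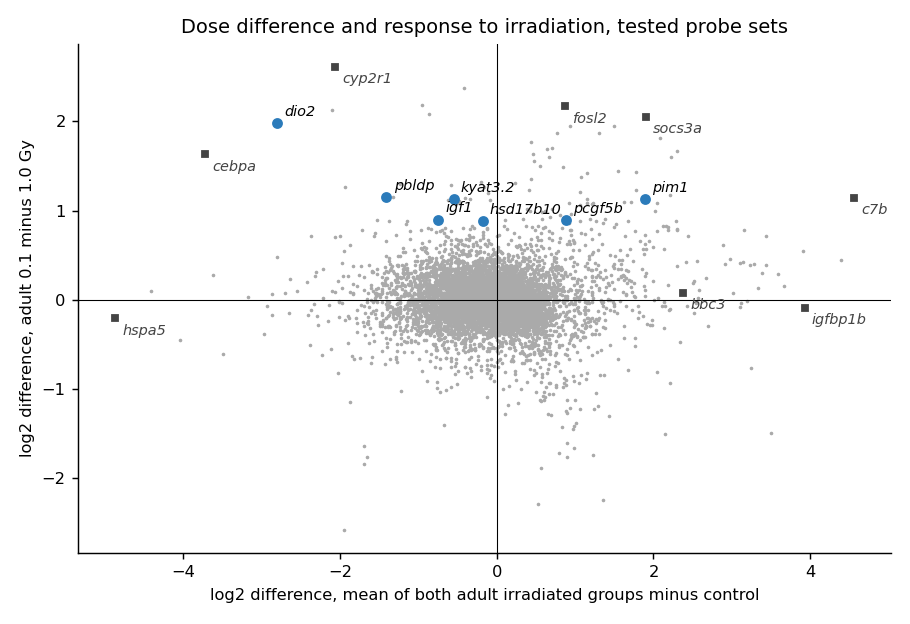
Each point is 1 of 8634 tested probe sets, placed by the log2 difference of the mean of both adult groups from control (x axis) and by the log2 difference between adult 0.1 Gy and adult 1.0 Gy (y axis). Blue circles are the 7 called probe sets and dark squares are other genes named in the text, with hspa5 at -4.87 and igfbp1b at 3.93 on the x axis and near 0 on the y axis.

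Of the genes with the largest differences from control, some had means close to each other at the 2 doses, with intervals that in part reached past 2-fold. Igfbp1b, which binds insulin-like growth factors, read 10.99, 11.40 and 10.65 at 0.1 Gy and 11.19, 11.39 and 10.74 at 1.0 Gy, against 6.34 to 7.98 in controls (dose difference -0.09 ± 0.45, 95% interval -1.05 to 0.87). The endoplasmic reticulum chaperone hspa5, the strongest decrease, read 6.09, 6.22 and 6.5 at 0.1 Gy and 5.84, 7.49 and 6.10 at 1.0 Gy, against 11.10 to 11.41 in controls (-0.21 ± 0.35, 95% interval -0.96 to 0.55). Narrower intervals were reached for the glutamine synthetase glula (0.13, 95% interval -0.34 to 0.61) and the tubulin tubb2b (0.03, 95% interval -0.34 to 0.41), whose differences from control were 3.34 and -3.18. The carnitine palmitoyltransferase cpt1b (0.15 ± 0.50), which admits fatty acids to mitochondria, and hif1al (0.45 ± 0.28), a relative of hypoxia-inducible factors, had differences from control of 3.67 and 4.40. The strongest increase, the complement gene c7b, read 11.81, 9.83 and 12.40 at 0.1 Gy and 10.43, 10.57 and 9.64 at 1.0 Gy, and its dose interval of -0.03 to 2.30 reached past 2-fold. Among the strong decreases cebpa, a transcription factor that maintains hepatocyte genes, had a wider gap. It read 9.15, 7.62 and 8.31 at 0.1 Gy, against 6.49, 6.61 and 7.11 at 1.0 Gy, with controls of 10.73 to 11.56 (dose difference 1.63 ± 0.42, adjusted p = 0.14, limma).

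The p53 targets, which carry the best known transcriptional answer to DNA damage, had a median dose difference close to that of all tested probe sets. Of 47 listed genes 30 were matched to a probe set and 19 were tested. Against control 9 of these were called higher and 4 lower for the mean of both doses, beside 14.6% and 25% of all tested probe sets. Between doses 0 were called, beside 0.0811%, with 2 higher and 3 lower at an unadjusted p under 0.05, beside 6.93% and 5.55%. The median dose difference was 0.03, and the interval lay within 2-fold for 14 of the 19, beside 92.1% of all tested probe sets. The ubiquitin ligase mdm2, which degrades p53, read 6.81, 6.87 and 7.07 at 0.1 Gy and 7.13, 7.12 and 7.0 at 1.0 Gy, against 6.21 to 6.52 in controls (dose difference -0.17 ± 0.11, 95% interval -0.41 to 0.08). Of the pro-apoptotic targets, bbc3 (0.08, 95% interval -0.52 to 0.69), baxa (0.05, -0.28 to 0.39) and bida (0.04, -0.18 to 0.27) were called above control at each dose. The stress protein tp53inp1 rose by 2.40 at 0.1 Gy and by 2.46 at 1.0 Gy against control. The DNA damage gene gadd45aa differed more, at 6.0, 5.4 and 5.83 at 0.1 Gy against 5.4, 4.83 and 5.00 at 1.0 Gy (0.67 ± 0.21, adjusted p = 0.22, limma). It was called above control at 0.1 Gy and not at 1.0 Gy, a contrast of calls that is no test of the dose difference. The antiproliferative btg2 read 9.18, 10.28 and 8.70 at 0.1 Gy, against 8.22, 8.35 and 7.33 at 1.0 Gy (1.42 ± 0.55, and 1.1 without adult 1.0 Gy replicate 3). Values in this paragraph are for a selection of members, without the 3 lower at an unadjusted p under 0.05. The p53 target sesn3, described above, was higher at 1.0 Gy.

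Genes of ribosome biogenesis had, with few exceptions, higher means at 0.1 Gy. Of 43 matched genes 37 were tested, and in 36 the mean was higher at 0.1 Gy (37 with arrays centred on their medians and 35 after another quantile normalization, but 29 without the 2 adult 0.1 Gy arrays of other source name). The median difference was 0.32, against -0.02 over all tested probe sets, of which 3921 of 8634 had a higher mean at 0.1 Gy. None was called. At an unadjusted p under 0.05, 15 of 37 were higher at 0.1 Gy and 0 lower, beside the 6.93% and 5.55% of all tested probe sets given above, and in 19 of 37 the 0.1 Gy arrays lay above all 1.0 Gy arrays, beside 9.52%. The mean level of the 37 genes was 7.04, 6.98 and 6.85 at 0.1 Gy, against 6.53, 6.56 and 6.68 at 1.0 Gy. Controls read 6.62, 7.0 and 7.17, so that control replicate 1 lay with the 1.0 Gy arrays and the other controls near or above the 0.1 Gy arrays. The list holds uck2b and pprc1, which are not ribosome factors in the strict sense, and without them 34 of 35 were higher with a median of 0.32.

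The members named first are from the 19 of 37 in which the 0.1 Gy arrays lay above all 1.0 Gy arrays. Nucleophosmin (npm1a), an abundant nucleolar chaperone, read 11.48, 11.21 and 11.48 at 0.1 Gy, against 10.59, 10.71 and 11.07 at 1.0 Gy (0.60 ± 0.14, adjusted p = 0.11, limma). The ribosome assembly factor rrs1 read 6.53, 6.26 and 6.40 at 0.1 Gy, against 5.67, 5.49 and 5.69 at 1.0 Gy (0.78 ± 0.20). The nucleolar factor noc2l read 6.64, 6.35 and 6.12 at 0.1 Gy, against 5.74, 5.65 and 5.83 at 1.0 Gy (0.63 ± 0.16). In none of these did the doses overlap. The uridine-cytidine kinase uck2b, of the pyrimidine salvage pathway, read 7.01, 6.35 and 7.19 at 0.1 Gy, against 5.74, 5.80 and 5.65 at 1.0 Gy (1.12 ± 0.22, adjusted p = 0.082, limma), with controls of 6.51 to 7.22. Among the other members, the RNA methyltransferase nop2 (0.81), the nucleolar GTPase gnl3 (0.70), the box C/D proteins nop58 (0.67) and fibrillarin (fbl, 0.57) and the RNA polymerase I factor rrn3 (0.56) did not overlap between doses either. The helicase ddx18 (0.06) and bop1 (-0.02) had differences near 0.

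**Figure D4:**
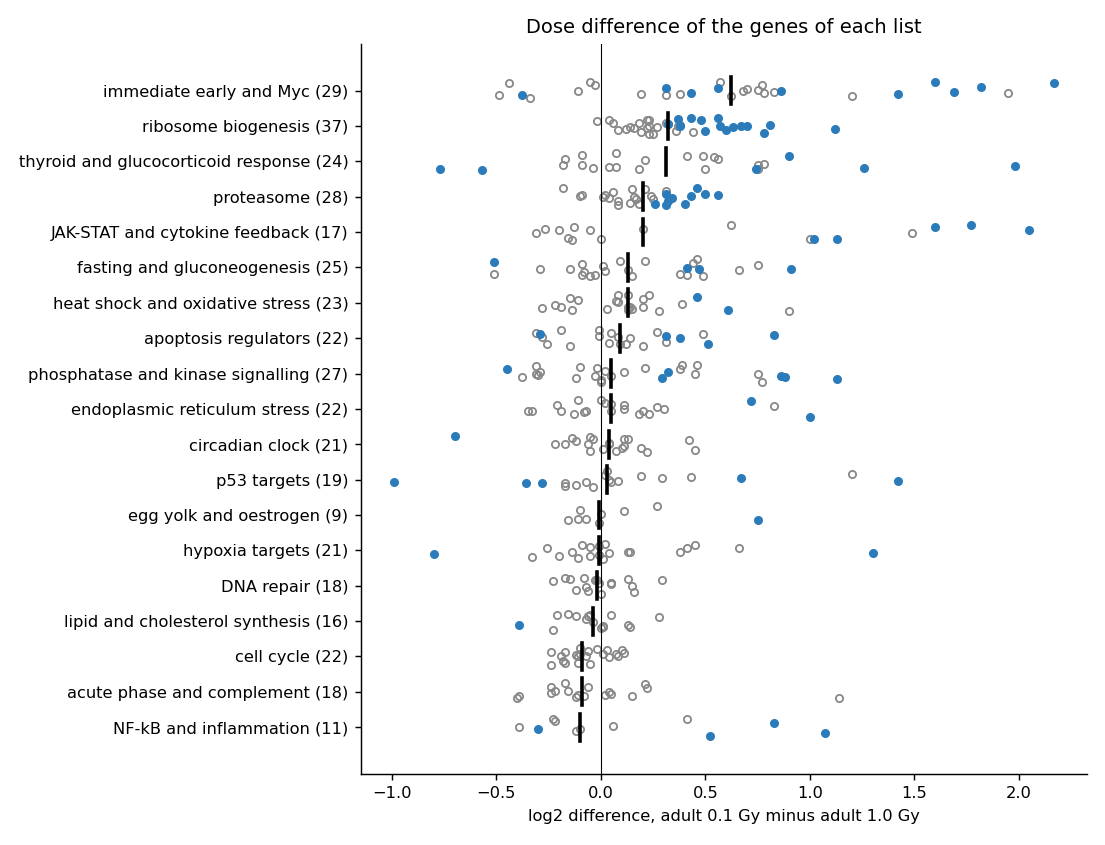
Log2 difference between adult 0.1 Gy and adult 1.0 Gy (x axis) of the tested genes of 19 lists (y axis, number of tested genes in brackets, ordered by median). Filled blue points have an unadjusted p under 0.05, open points do not, and black bars are medians: 0.62 for immediate early and Myc genes, 0.32 for ribosome biogenesis and 0.03 for p53 targets.

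Proteasome genes, which encode the complex that degrades ubiquitinated proteins, were shifted the same way by less. Of 28 tested, 25 had a higher mean at 0.1 Gy (beside 3921 of all 8634 probe sets), and the median difference was 0.20. At an unadjusted p under 0.05, 10 were higher and 0 lower (beside 6.93% and 5.55% of all tested probe sets). Of the 28 genes 11 did not overlap, all with 0.1 Gy higher (beside 9.52%). Against control 19 of the 28 were called lower for the mean of both doses and 0 higher, and of the 37 ribosome genes 13 were called lower and 7 higher, beside 25% and 14.6% of all tested probe sets. The activator subunits psme3 and psme2 led the list. Psme3 read 7.33, 7.37 and 7.21 at 0.1 Gy, against 6.60, 6.52 and 7.12 at 1.0 Gy (0.56 ± 0.16), and controls read 7.25 to 7.69. Psme2 read 7.39, 7.32 and 7.25 at 0.1 Gy, against 7.03, 6.72 and 6.72 at 1.0 Gy (0.50 ± 0.14), and controls read 7.37 to 7.49. The core subunits psma5 (0.46) and psma4 (0.40) and the ATPase psmc4 (0.43) were further members with an unadjusted p under 0.05. Without the 2 arrays of other source name, which leaves 1 adult 0.1 Gy array, both shifts were smaller. The medians of the ribosome and proteasome lists were then 0.23 and 0.12, beside -0.05 over all tested probe sets. In that fit 29 of the 37 ribosome genes and 22 of the 28 proteasome genes were higher at 0.1 Gy. Without adult 1.0 Gy replicate 3 the medians were 0.38 and 0.23.

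Immediate early and Myc genes had the largest median of the lists other than cell type markers, 0.62. In 22 of 29 tested genes the mean was higher at 0.1 Gy (beside 3921 of all 8634 probe sets). At an unadjusted p under 0.05, 9 were higher and 1 lower (beside 6.93% and 5.55%), and 0 were called. Adult 1.0 Gy replicate 3 weighed on this list. Without it the median was 0.28, 22 of 29 were still above 0, and 5 in place of 9 were higher at an unadjusted p under 0.05. The mean level of the 29 genes was 8.39, 8.86 and 8.58 at 0.1 Gy, against 8.26, 8.10 and 7.54 at 1.0 Gy, and 7.34, 7.32 and 7.98 in controls. Genes with a similar difference without that array included fosl2, csrnp1a, klf6a, dusp6 and the Myc gene mycb (1.69 ± 0.74, and 1.85 without it). The AP-1 member fosl2 read 8.12, 6.64 and 9.35 at 0.1 Gy, against 6.46, 5.72 and 5.43 at 1.0 Gy (2.17 ± 0.49, and 1.95 without replicate 3), and its second probe set differed by 1.87. Its controls (5.91 to 6.40) lay near the 1.0 Gy arrays. The nuclear protein csrnp1a read 6.73, 5.04 and 6.83 at 0.1 Gy, against 4.47, 4.90 and 3.80 at 1.0 Gy (1.82 ± 0.37, adjusted p = 0.082, limma), above controls of 3.17 to 3.26 at both doses. The Krüppel-like factor klf6a read 7.85, 7.84 and 7.81 at 0.1 Gy, against 7.23, 7.42 and 7.18 at 1.0 Gy (0.56 ± 0.13). The ERK phosphatase dusp6 read 8.26, 8.53 and 9.12 at 0.1 Gy, against 8.06, 7.68 and 7.59 at 1.0 Gy (0.86 ± 0.22), while a second, dimmer probe set of dusp6 differed by 0.11. The zinc finger factor egr2a, from outside the list, ran the same way (1.64 ± 0.38, adjusted p = 0.11, limma). The difference of junba was 1.60 ± 0.62, and 0.93 without replicate 3. Btg1 (-0.38) was the 1 member with a lower value at 0.1 Gy at an unadjusted p under 0.05.

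In the JAK-STAT list 10 of 17 tested genes had a higher mean at 0.1 Gy (beside 3921 of all 8634 probe sets) and the median difference was 0.20. Of the 17 genes 1, pim1, was called, beside 0.0811% of all tested probe sets. That count is no test of the list, which was chosen with earlier results of these data known. At an unadjusted p under 0.05, 5 were higher and 0 lower (beside 6.93% and 5.55%). The kinases jak1 (-0.05) and jak2b (-0.20) and the factors stat3 (-0.14) and stat5a (-0.13) had negative differences, as did pim2 (-0.31) and the phosphatases ptpn6 (-0.27) and ptpn2a (-0.16). The suppressor socs3a read 9.53, 9.79 and 9.30 at 0.1 Gy, against 7.80, 7.52 and 7.13 at 1.0 Gy (2.05 ± 0.50, adjusted p = 0.13, limma). Its controls were spread widely, at 5.25, 6.47 and 8.12. Socs3b read 8.37, 8.09 and 8.80 at 0.1 Gy, against 7.71, 7.33 and 7.13 at 1.0 Gy (1.02 ± 0.33), and socs1a differed by 1.77. Both cish genes were higher in the mean without separation of the arrays: cisha differed by 1.49 ± 0.78 (95% interval -0.17 to 3.16) and cishb, also named socs8, by 1.00 ± 0.64 (-0.38 to 2.38).

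**Figure D5:**
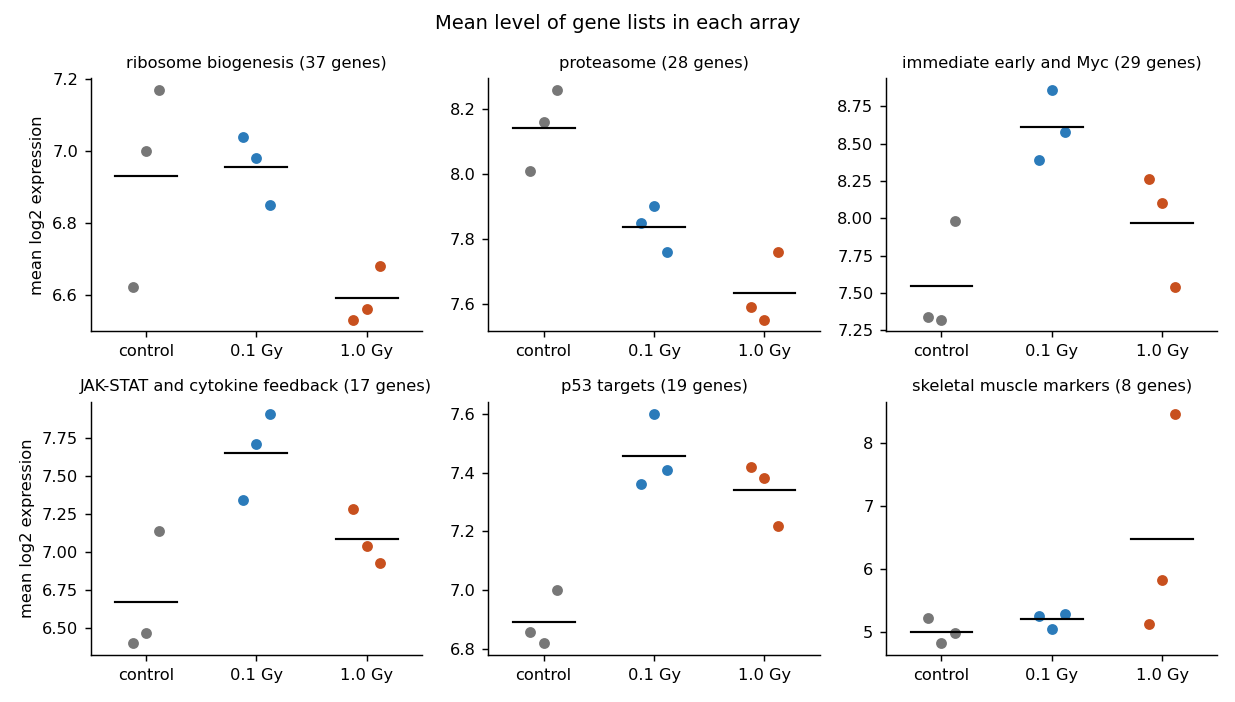
Mean log2 expression of the tested genes of 6 lists (y axis, a separate scale for each list) in control, adult 0.1 Gy and adult 1.0 Gy livers (x axis). Points are arrays, replicates 1 to 3 from left to right, and lines are group means. Ribosome biogenesis genes lie at 6.85 to 7.04 at 0.1 Gy and at 6.53 to 6.68 at 1.0 Gy, and skeletal muscle markers are at 8.46 in adult 1.0 Gy replicate 3.

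Among genes of inflammatory signaling, the median of 11 tested genes was -0.10. At an unadjusted p under 0.05, 3 members, 2 of them C/EBP factors, had higher values at 0.1 Gy, beside 6.93% of all tested probe sets. The prostaglandin synthase ptgs2a (-0.30 ± 0.11) was the 1 member with lower values, beside 5.55%. Cebpd, a factor of the acute phase response, read 11.87, 11.95 and 11.88 at 0.1 Gy, against 11.09, 11.48 and 10.64 at 1.0 Gy (0.83 ± 0.22, adjusted p = 0.16, limma). Cebpb differed by 0.52 ± 0.17 and the inhibitor nfkbiab by 1.07 ± 0.39, or 0.74 without adult 1.0 Gy replicate 3. The subunit nfkb2 did not reach that p, at 5.2, 5.36 and 5.15 at 0.1 Gy against 5.59, 5.43 and 5.87 at 1.0 Gy (-0.39 ± 0.19, 95% interval -0.81 to 0.02). Genes of acute phase and complement proteins had a median of -0.09 over 18 genes and 0 at an unadjusted p under 0.05 in either direction.

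The list of thyroid and glucocorticoid response had 24 tested genes with a median of 0.31 (0.05 without adult 1.0 Gy replicate 3). It held 2 of the called genes, dio2 and igf1, beside 0.0811% of all tested probe sets. The lists were chosen with earlier results of these data known, so this count is no test of the list. At an unadjusted p under 0.05, 4 were higher and 2 lower at 0.1 Gy, beside 6.93% and 5.55%. Dio1, the deiodinase abundant in liver, ran opposite to dio2 (-0.77), as did the glucocorticoid receptor nr3c1 (-0.57), both with an unadjusted p under 0.05, though other probe sets of nr3c1 differed by only -0.21 and -0.25. The thyroid hormone receptor thraa was 3.12 above control for the mean of both doses and differed between doses by -0.04. Hsd11b2, which inactivates cortisol, read 10.77, 10.74 and 11.38 at 0.1 Gy, against 10.53, 9.5 and 10.65 at 1.0 Gy (0.74 ± 0.28).

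Genes of fasting and gluconeogenesis had a median of 0.13 over 25 genes. The gluconeogenic phosphatase fbp1a read 6.95, 7.0 and 6.84 at 0.1 Gy, against 6.64, 6.64 and 6.10 at 1.0 Gy (0.47 ± 0.14, and 0.29 without adult 1.0 Gy replicate 3). Lpin1a, a phosphatidate phosphatase and coactivator of the fasting response, differed by 0.91 ± 0.28, and the insulin receptor insra by -0.51 ± 0.20.

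Of the apoptosis regulators 22 were tested, with a median of 0.09. The caspase inhibitor xiap read 8.71, 8.52 and 9.20 at 0.1 Gy, against 8.10, 8.01 and 7.82 at 1.0 Gy (0.83 ± 0.17, adjusted p = 0.082, limma), and the controls (7.60 to 8.13) overlapped the 1.0 Gy arrays. The initiator caspase casp9 read 6.99, 6.95 and 7.81 at 0.1 Gy, against 6.70, 6.82 and 6.70 at 1.0 Gy (0.51 ± 0.21), above controls of 5.09 to 5.14 at both doses. The mitochondrial flavoprotein aifm1 differed by 0.38 ± 0.14 and the nuclease dffb by -0.29 ± 0.12. Among redox genes thioredoxin (txnb) read 10.56, 10.35 and 10.59 at 0.1 Gy, against 10.14, 9.65 and 9.87 at 1.0 Gy (0.61 ± 0.12, adjusted p = 0.082, limma), with all irradiated arrays below the controls (10.81 to 10.97). The quinone reductase nqo1 differed by 0.46 ± 0.18.

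Among the lists other than cell type markers, 3 had no gene at an unadjusted p under 0.05 in either direction (beside 6.93% and 5.55%). They were DNA repair (18 of 30 matched genes tested, median -0.02), cell cycle (22 of 35, -0.09) and acute phase and complement. The median levels of the DNA repair and cell cycle genes at 0.1 Gy were low, 5.11 and 5.21, near the medians of those arrays (5.05 to 5.14). The endoplasmic reticulum stress list, of whose 22 genes 15 were called below control (beside 25% of all tested probe sets), had a median dose difference of 0.05. Medians were 0.04 for circadian clock, -0.01 for hypoxia targets and -0.04 for lipid and cholesterol synthesis genes. Skeletal muscle markers had a median of -1.36, which was -0.24 without adult 1.0 Gy replicate 3, and 8 of 8 were lower at 0.1 Gy. Exocrine pancreas markers had a median of -0.55, and 9 of 9 were lower at 0.1 Gy, but without adult 1.0 Gy replicate 3 the median was 0.22 and 7 of 9 were higher.

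The same doses given to embryos were set beside the adult difference. The adult and embryo comparisons differ both in age at exposure and in time since exposure, which cannot be told apart here. Between the embryo groups 107 probe sets (1.24%) were called, 35 higher (0.405%) and 72 lower (0.834%) at 0.1 Gy. Over the 8634 probe sets the adult and embryo dose differences, which share no array, had a Pearson r of 0.09, a description across probe sets measured in the same hybridization series. One probe set was called in both, that of pim1, which differed by 1.04 ± 0.17 between the embryo groups (adjusted p = 0.008, limma), and its adult and embryo differences differed by 0.10 (adjusted p = 0.93, limma). Socs3a had dose differences of 2.05 ± 0.50 in adults and 2.01 ± 0.50 in embryos. A test of the difference between the adult and the embryo dose difference called 61 probe sets (0.707%), 43 more positive (0.498%) and 18 more negative (0.208%) in adults. Of the 7 adult calls pbldp was among them (adult 1.15, embryo -0.21, difference 1.37, adjusted p = 0.04, limma). So were uck2b (adult 1.12, embryo -1.07, difference 2.19, adjusted p = 0.014, limma) and rrs1 (adult 0.78, embryo -0.80, difference 1.58, adjusted p = 0.028, limma). Over the whole ribosome biogenesis list the embryo median was -0.08, with 11 of 37 genes higher at 0.1 Gy. At an unadjusted p under 0.05, 2 were higher and 7 lower, beside 7.29% and 6.54% of all tested probe sets. Called for the difference of differences were 3 of the 37, rrs1, uck2b and pprc1, beside 0.707% of all tested probe sets. Uck2b and pprc1, as said above, are not ribosome factors in the strict sense. The proteasome list ran the same way in both comparisons, with an embryo median of 0.26 and 25 of 28 genes higher at 0.1 Gy. So did immediate early and Myc genes, with an embryo median of 0.41 and 20 of 29 genes higher. The JAK-STAT list had an embryo median of 0.16 and 14 of 17 genes higher. At an unadjusted p under 0.05, 12 proteasome genes were higher and 0 lower in embryos. For immediate early and Myc genes 8 were higher and 4 lower, and for the JAK-STAT list 4 and 0. The shares of all tested probe sets were 7.29% and 6.54%.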

How the data were processed

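Livers were profiled on 15 arrays in 5 groups of 3. Per the paper's methods and the labels, the authors quantile normalized the arrays and computed log2 probe set values by Robust Multiarray Average, without stated versions. The deposited log2 values were used unchanged. Of 15617 probe sets, 115 manufacturer controls were left out. By the platform annotation 10795 of the other 15502 have 1 gene symbol, 135 several and 4572 none, with symbols updated through RefSeq.

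As in the paper's methods, probe sets with an interquartile range under 0.2 were dropped, and limma 3.58.1 in R 4.3.3 fitted 5 group means over 15 arrays. Standard errors, intervals and Benjamini-Hochberg adjusted p values over 8634 probe sets come from that fit. The paper's own comparisons covered fewer probe sets, so its counts and adjusted p values have another basis. The number of arrays limits the precision. Lists use 1 probe set a gene, that with the highest mean. No set test was run, since the comparison, lists and naming rule were chosen with earlier results of these data known. The rule names every called probe set, the 15 largest non-overlapping differences each way with an unadjusted p under 0.01, up to 4 genes of smallest p in each list and every p53 target, the 10 largest increases and decreases against control, the 5 genes the study measured by PCR, and other probe sets of called genes. Not all genes that the rule names are given in the text. Genes named beyond it, from the lists or from adult 1.0 Gy replicate 3, were chosen after their values were seen. The fit was also run on simulated data with independent normal noise. Those data held no outlying array, so that run does not bear on how stable the calls are. No sequence is shown, as none was available for use here. Alternatives were another filter, centring, quantile normalization again, array weights, trended robust moderation, the adult arrays alone, a replicate block, and fits without single arrays or without the arrays of other source name.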

Additional observations from a re-analysis of the deposited data

Results flagged for a closer look

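The dose difference differed between fish irradiated as adults and as embryos, by the test of the difference itself, in 61 probe sets. In embryos, as said above, dose cannot be told apart from rearing group. Among the genes named by the rule these were uck2b (adult minus embryo dose difference 2.19), esr2b, an estrogen receptor (1.89), rrs1 (1.58), gadd45aa (1.51), pbldp (1.37), gclm, a subunit of the enzyme that makes the glutathione precursor (1.15), itm2cb (-1.07) and apol1 (-1.34). In gadd45aa the dose difference was 0.67 ± 0.21 in adults and -0.84 ± 0.21 in embryos, and in esr2b it was 0.75 ± 0.27 in adults and -1.14 ± 0.27 in embryos. In gclm it was 0.28 ± 0.14 in adults, where the arrays overlapped, and -0.87 ± 0.14 in embryos. In apol1, which read 6.76, 7.41 and 6.65 in adult 0.1 Gy livers against 8.15, 7.44 and 7.69 in adult 1.0 Gy livers, it was -0.82 ± 0.20 in adults and 0.53 ± 0.20 in embryos. The number of such probe sets was 34 without adult 0.1 Gy replicates 1 and 2 and 13 with the replicate number as a block.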

How the results depend on the processing

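The 7 calls between the adult doses became 4 without the filter, 0 with an interquartile range of at least 0.5 (which left igf1, kyat3.2, hsd17b10 and pcgf5b untested), 2 with the 6 adult arrays alone, 26 without the 2 adult 0.1 Gy arrays of other source name (3 of the 7 among them), 32 without all 4 such arrays, 47 with array weights and 12 with trended robust moderation. They were 7 without the F-test, 8 with median centring and 9 with quantile normalization again, and the cause of these changes was not tested. In fits without 1 array they ranged from 0 to 51: 0 without adult 0.1 Gy replicate 1 or 3 or embryo 0.1 Gy replicate 2 or 3, 31 without adult 0.1 Gy replicate 2, 1, 2 and 1 without adult 1.0 Gy replicates 1, 2 and 3, and 51, 4 and 6 without control replicates 1, 2 and 3. Control and embryo arrays enter through the shared spread, the F-test and the filter.

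The embryo count (107) was 355 with array weights, and without single arrays 37 to 177. The count for the adult minus embryo difference (61) was 34 without the filter, 34 without the 2 arrays, 174 with array weights, and 3 to 126 without single arrays. Against control, the counts at 0.1 Gy (2967), at 1.0 Gy (3182) and for both (3417) were 1295, 1305 and 1367 with the stricter filter and 923, 1126 and 1224 without the 4 arrays, and the count at 0.1 Gy was 1790 without the 2 arrays. Without single arrays they ranged from 2161 to 3051, 2277 to 3286 and 2502 to 3536. With the 6 adult arrays alone the other comparisons have no value.

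Replicate numbers were shared between groups, yet same-numbered adult arrays deviated with correlations of -0.13, -0.14 and 0.02, so the number was not used to pair them. With it as a replicate block 7 probe sets were called between the adult doses (6 of them shared, pbldp lost), 66 between the embryo doses and 13 for their difference. No named difference that was called changed sign under any of the 26 alternatives. Lists fitted without the 2 arrays or without adult 1.0 Gy replicate 3 were added after the data were seen. With 3 arrays a group, the median half-width of 0.31 limits which dose differences can be detected.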

Other observations

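Further genes with a called difference between the adult and embryo dose differences were found by the same test and not by the naming rule. The cyclin relative ccng2 had dose differences of -0.38 in adults and 1.1 in embryos (difference -1.49, adjusted p = 0.046, limma), and its second probe set gave -0.48 in adults and 0.87 in embryos (-1.35, adjusted p = 0.022, limma). The nucleolar protein nifk, which binds a proliferation antigen and acts in ribosome assembly, had 0.75 in adults and -0.88 in embryos (1.63, adjusted p = 0.032, limma). Both were chosen after their values were seen.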
